A study of Mus musculus with 2 samples.

Results

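Mesenchymal and fibro-adipogenic progenitor markers are genes used to recognise the interstitial, non-myogenic cells of skeletal muscle. The 10 genes described here were picked by symbol, with earlier results of these data known: Pdgfra, Pdgfrb, Ly6a, Cd34, Thy1, Prrx1, Twist1, Twist2, Dpp4 and Fap. All 10 were present among the 21829 genes of the deposited files. The data are RNA sequencing values from C2C12, an immortalised mouse myoblast line, with 1 library of WT cells and 1 library whose genotype is labelled GNE KO. Both lines were grown in the same medium with fetal bovine serum, as proliferating myoblasts. Per the methods, the KO line was made by electroporation of Cas9 and guide plasmids against exon 2 of Gne, and single clones were picked by dilution. Which clone was sequenced, and whether the WT cells were cloned, are not given in the sources used here, so a difference between the lines and a difference between a clone and its parent cannot be told apart. With 1 library per line no difference has a replicate check, no P value is given, and each statement compares these 2 libraries.

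In adult muscle, fibro-adipogenic progenitors lie between the fibres, carry the PDGF receptor alpha and the Ly6a product Sca-1, and can give rise to fibroblasts and fat cells. They produce matrix and signals that myogenic cells respond to. Several of their markers are shared with other cells: Cd34 also marks quiescent satellite cells and blood progenitors, Pdgfrb marks pericytes, and Prrx1 and the Twist genes mark embryonic mesenchyme in general. The presence of such a transcript in a cultured line therefore names no cell type.

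Values are taken as FPKM, a fragment count divided by transcript length and sequencing depth, so that levels of different genes can be compared per length. The files name no unit and the methods name TPM, a related unit per length, so the values may be TPM. The values and fold changes are as deposited under either name. Above 0 were 13709 genes in WT cells and 13589 in the others. Gne itself was at 6.67 FPKM in WT cells against 7.34 FPKM in the line labelled KO. Its level therefore does not tell the libraries apart. The paper describes a base insertion in Gne that leads to an early stop codon, and reports less sialic acid on KO cells. Such an edit need not lower the RNA level, so the level of Gne is no check of the knockout in either direction. The second library is called KO-labelled throughout, after its label. A fold change is log2((KO + 1)/(WT + 1)), which understates the change of low genes, and was counted where the 2 libraries averaged 1 FPKM or more. Of the 10542 genes that passed this filter, 2.84% were over 2-fold higher in KO-labelled cells and 3.43% over 2-fold lower. These shares are the background for the counts of every gene list below.

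The 10 markers were either present in both libraries or listed at 0 in both. The surface genes Cd34, Ly6a, Pdgfrb and Pdgfra and the transcription factor genes Prrx1 and Twist2 were present in both libraries, and these 6 passed the filter. Thy1, Twist1, Dpp4 and Fap were listed at 0 in both. Among the 6, 1 gene, Cd34, was over 2-fold lower in KO-labelled cells and 0 were over 2-fold higher. The median log2 fold change of the 6 was 0.0059, against 0.0061 for all genes past the filter. On the log2 scale 3 of the 6, Prrx1, Twist2 and Pdgfra, lay between the quartiles of all genes, -0.21 and 0.23.

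**Figure D1:**
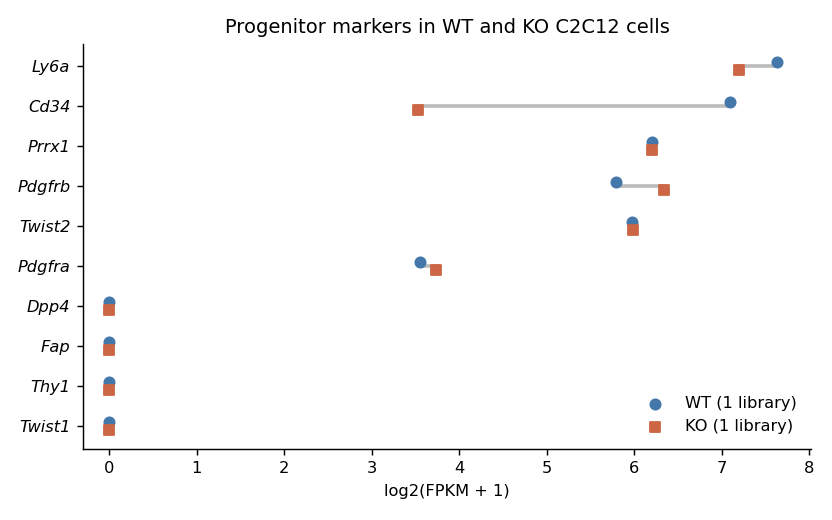
Level of each of the 10 markers in WT cells (circles) and in KO-labelled cells (squares), as log2(FPKM + 1), 1 library each and no error bars. Cd34 spans 136 to 10.6 FPKM, the other 5 detected markers differ by less than 2-fold, and 4 markers sit at 0 in both.

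Cd34 encodes a heavily glycosylated sialomucin of the cell surface that takes part in adhesion. It had 136 FPKM in WT cells against 10.6 FPKM in KO-labelled cells. The WT value was 12.8 times the other, and the log2 fold change was -3.56. In the WT library Cd34 ranked 621 among all genes by level, and in KO-labelled cells it ranked 6473. Only 15 of the 10542 genes past the filter had a lower log2 fold change. Of the 873 genes with at least 100 FPKM in WT cells, 0 had a lower ratio of the KO-labelled library to WT than Cd34. That limit of 100 FPKM was set after the values were seen. Des, a myoblast marker at 97.6 FPKM in WT cells, fell just under it and had a lower ratio, 0.039 against 0.078 for Cd34. The value of Cd34 did not reach 0. From the size of the lowest values in the files, its level corresponds to roughly 9000 fragments in WT cells and 610 in KO-labelled cells. These are estimates, described with the processing, and carry no interval. In bulk RNA, fewer cells with Cd34 and less Cd34 RNA per cell cannot be told apart.

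The other genes of the CD34 family were scarce. Podxl, which encodes podocalyxin, had 0.493 FPKM in WT cells against 0.020 FPKM in KO-labelled cells. Podxl2, encoding endoglycan, had 0.585 and 0.815 FPKM. Neither passed the filter. Cd34 was thus the 1 sialomucin of the 3 with a mean above 1 FPKM, and in KO-labelled cells all 3 were below 11 FPKM.

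Ly6a encodes Sca-1, a small surface protein held by a glycolipid anchor. It was the highest of the 10 markers in both libraries, with 198 FPKM in WT cells against 146 FPKM in KO-labelled cells. Its log2 fold change was -0.44. Ly6a and Cd34 are often read together on progenitor cells, and the ratio of their levels was 1.46 in WT cells and 13.8 in KO-labelled cells. Sequences of Ly6 genes are close to each other, and the counting may split reads between them, so that the values of single members are uncertain.

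Of 22 genes of the Ly6 and uPAR family found in the files, Ly6a included, 7 passed the filter, 1 of them over 2-fold higher and 1 over 2-fold lower. The median log2 fold change of the 7 was -0.67. Of these, Ly6a, Ly6c1, Ly6c2, Ly6e and Lynx1 lie on chromosome 15, where the genes past the filter near each had a median of -0.37. Whether this shared position has a part in the family median was not tested. Ly6e, a neighbour of Ly6a, had 516 FPKM in WT cells against 116 FPKM in KO-labelled cells, a log2 fold change of -2.14. Ly6e was therefore above Ly6a in WT cells and below it in the other. Ly6c1, the closest neighbour of Ly6a past the filter on the other side, had 17.6 and 14.4 FPKM, and Ly6c2 had 2.63 and 1.28 FPKM. Cd59a, encoding an inhibitor of complement lysis, was the gene over 2-fold higher, at 0.672 FPKM in WT cells against 2.65 FPKM in KO-labelled cells, and was not beyond the limit with a pseudocount of 5.

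The 2 PDGF receptor genes were both present, and Pdgfrb was the higher of the pair. Pdgfrb, which encodes the receptor beta chain, had 54.5 FPKM in WT cells against 80.2 FPKM in KO-labelled cells. Its log2 fold change of 0.55 was the highest among the 10 markers, and 91.3% of all genes past the filter had a lower one. Pdgfra, which encodes the alpha chain and is the most used marker of fibro-adipogenic progenitors, had 10.8 and 12.3 FPKM, a log2 fold change of 0.17. It was the lowest of the 6 detected markers in WT cells. The level of Pdgfrb was 5.07 times that of Pdgfra in WT cells and 6.53 times in KO-labelled cells. In KO-labelled cells Cd34, at 10.6 FPKM, lay below Pdgfra, whereas in WT cells it was 12.6 times as high as Pdgfra.

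Among the 4 PDGF ligand genes 3 passed the filter, 1 of them over 2-fold higher and 0 over 2-fold lower. Pdgfb, whose product binds both receptor chains, had 0.474 FPKM in WT cells against 5.06 FPKM in KO-labelled cells, a log2 fold change of 2.04. Pdgfc, whose product binds receptors with an alpha chain, had 5.75 and 11.95 FPKM, a log2 fold change of 0.94 that stayed just inside the limit. Pdgfa, also a ligand of the alpha chain, was the highest ligand gene in both libraries, with 25.8 and 21.9 FPKM. With a pseudocount of 5 the value of Pdgfb was 0.88, inside the limit, and with 0.1 that of Pdgfc was 1.04, beyond it. The mean of Pdgfb was below 5 FPKM, so that it was not counted under a minimum mean of 5 FPKM. Pdgfd was listed at 0 in WT cells and at 0.015 FPKM in KO-labelled cells. The excess of Pdgfa over Pdgfb was thus 54.4 times in WT cells and 4.33 times in KO-labelled cells.

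Adaptors, effectors and early response genes of PDGF receptor signalling centred near 0 as a list. Of 25 genes 24 passed the filter, with 0 over 2-fold higher, 2 over 2-fold lower and a median log2 fold change of 0.032. Both lower genes are early response genes: Junb had 282 FPKM in WT cells against 98.2 FPKM in KO-labelled cells, and Ier2 had 173 and 69.5 FPKM. Genes that lie within 5 Mb of them and passed the filter had a median of -1.46, close to their own values of -1.51 and -1.30. Gab1, an adaptor gene of the same list on chromosome 8 whose neighbours had the same median, was at -0.14 itself. Less their neighbours' median, Junb and Ier2 were at -0.051 and 0.16, within the 2-fold limit, while Gab1 and Pdgfrl were at 1.33 and 1.12, beyond it. The 2 genes beyond the limit thus differed in identity and direction between these readings. Whether the position of these genes has a part in the difference was not tested. The other early response genes past the filter stayed inside the limit. Myc had 58.6 FPKM in WT cells against 35.2 FPKM in KO-labelled cells, and Ier3 had 184 and 109 FPKM. Their neighbours had medians of -0.16 and -0.022. Jun went the other way, with 33.4 and 52.7 FPKM, and Egr1 had 139 and 129 FPKM. Pdgfrl, a gene related in sequence to the receptors, had 8.78 FPKM in WT cells against 17.1 FPKM in KO-labelled cells, a log2 fold change of 0.89. Grb2, an adaptor of receptor tyrosine kinases, had 34.3 FPKM in both.

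**Figure D2:**
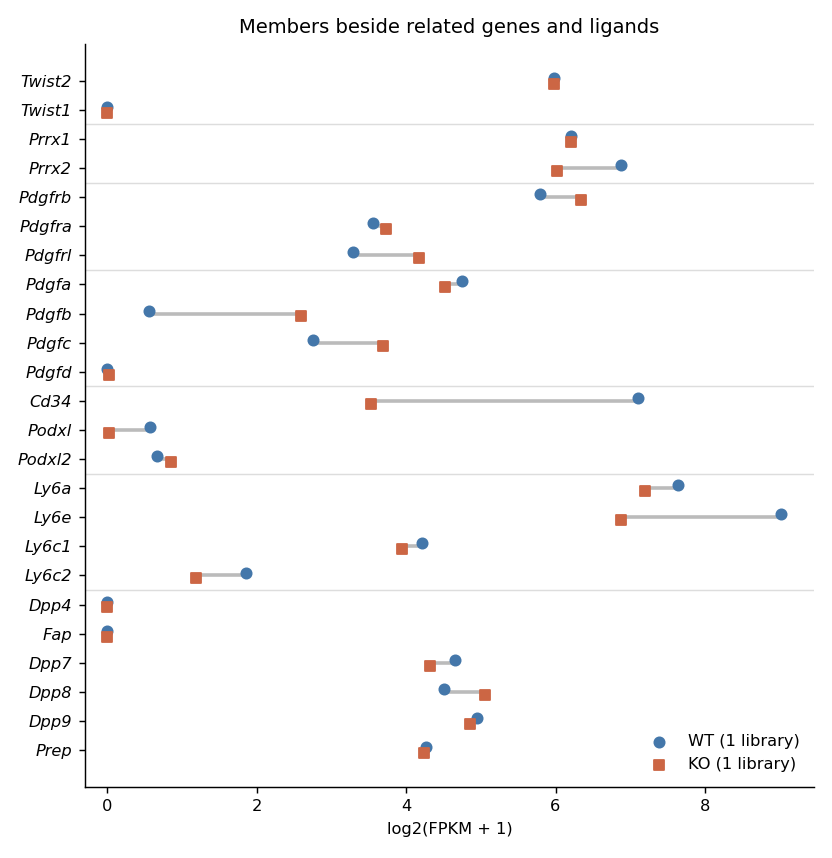
Levels of the markers beside related genes and the PDGF ligands, as log2(FPKM + 1), in WT cells (circles) and in KO-labelled cells (squares), 1 library each and no error bars. Grey lines separate the families. Twist2 is present where Twist1 is at 0, and Cd34, Ly6e and Pdgfb show the widest gaps between the libraries.

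The transcription factor markers showed the smallest differences. Prrx1 encodes a homeodomain protein of limb and connective tissue mesenchyme. It had 72.9 FPKM in WT cells against 73.0 FPKM in KO-labelled cells, a log2 fold change of 0.0033. Twist2 encodes a basic helix-loop-helix factor of mesenchymal and dermal precursors that can oppose myogenic factors. It had 61.9 and 62.3 FPKM, a log2 fold change of 0.0085. Both differed by less than 1% of the WT value, as did 3.54% of all genes past the filter. That limit was set after these values were seen. The ratio of Prrx1 to Twist2 was 1.18 in WT cells and 1.17 in KO-labelled cells.

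The nearest relatives of these factors behaved differently. Prrx2, the other member of the Prrx pair, had 117 FPKM in WT cells against 63.7 FPKM in KO-labelled cells, a log2 fold change of -0.86. Its level was 1.60 times that of Prrx1 in WT cells and 0.872 times in the other. Twist1, the other Twist gene, was listed at 0 in both libraries. Twist factors act as dimers with E proteins and are held back by Id proteins, and those partners were present. The E protein genes Tcf3, Tcf4 and Tcf12 had 48.3, 20.8 and 26.6 FPKM in WT cells against 59.2, 25.6 and 26.6 FPKM in KO-labelled cells.

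Over the 20 mesenchymal factors and Twist partners listed, 15 passed the filter, 0 of them over 2-fold higher and 1 over 2-fold lower. The lower gene was Id3, with 226 FPKM in WT cells against 98.6 FPKM in KO-labelled cells. Id2 had 92.9 and 47.8 FPKM and Id1 had 151 and 108 FPKM, so that the 3 expressed Id genes were each lower. The median of the list was -0.0070. Snai2, a zinc finger factor of mesenchymal cells, had 22.1 FPKM in WT cells against 22.0 FPKM in KO-labelled cells, and Foxc2 had 21.8 and 21.9 FPKM. Snai2, Foxc2 and Tcf12, which are named after their values were seen, were the 3 of the 15 within 1% of the WT value.

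The stretch of 250 bases before the start of 3 markers is given here for the contrasts above, the detected and the undetected Twist gene and the marker with the widest difference. The sequences are from RefSeq on GRCm38.p6, whose table held 6 of the 10 markers (Cd34, Dpp4, Pdgfra, Prrx1, Twist1 and Twist2). They lie on the plus strand at chr1:91801211-91801460 for Twist2, chr12:33957421-33957670 for Twist1 and chr1:194938571-194938820 for Cd34. Capitals mark matches, on either strand, to the E-box CANNTG, the site class bound by Twist and myogenic factors, or to the TATA motif TATAAA. These motifs do not overlap in the 3 stretches.
Twist2: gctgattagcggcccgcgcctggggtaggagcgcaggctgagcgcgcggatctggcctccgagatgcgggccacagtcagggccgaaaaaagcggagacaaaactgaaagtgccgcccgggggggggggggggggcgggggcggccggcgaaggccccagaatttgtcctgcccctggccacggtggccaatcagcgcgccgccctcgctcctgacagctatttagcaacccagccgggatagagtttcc
Twist1: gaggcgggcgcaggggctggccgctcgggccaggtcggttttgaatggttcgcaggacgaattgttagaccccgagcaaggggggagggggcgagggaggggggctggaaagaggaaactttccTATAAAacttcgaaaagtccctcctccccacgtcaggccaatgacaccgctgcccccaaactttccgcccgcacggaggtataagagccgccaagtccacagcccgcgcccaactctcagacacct
Cd34: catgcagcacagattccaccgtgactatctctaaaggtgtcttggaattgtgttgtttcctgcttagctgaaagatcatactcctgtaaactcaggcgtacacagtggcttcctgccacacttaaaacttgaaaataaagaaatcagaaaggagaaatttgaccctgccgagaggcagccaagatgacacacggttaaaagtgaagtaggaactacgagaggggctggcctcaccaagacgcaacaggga

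CANNTG was found in 0 of these 3 stretches and in 66.2% of the 32851 RefSeq stretches of this length. It was found in those of Pdgfra and Dpp4, with 1 match each, and not in that of Prrx1. TATAAA was found once in the Twist1 stretch, its first base at position -126 from the start, and in 12.4% of all stretches. The G and C content was 68.8% for Twist2, 62.4% for Twist1 and 46.4% for Cd34. The matches describe these letters only.

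Thy1, Dpp4 and Fap, like Twist1, were listed at 0 in both libraries. Thy1 encodes a glycolipid-anchored surface protein of fibroblasts and T cells. Dpp4 encodes the surface peptidase CD26 and marks an early fibroblast progenitor, and Fap encodes the related fibroblast activation protein. Values of exactly 0 were shared by 7356 of the 21829 genes in both libraries. Among 242 genes of families that dividing cells use throughout, such as cytosolic and mitochondrial ribosomal proteins, RNA polymerase II and complex I subunits, 0 were listed at 0 in either library. The lowest values among them were 0.022 FPKM for chaperonin subunits and 0.049 FPKM for complex I subunits, levels close to those of a few fragments. These families were taken by symbol and so hold genes that were barely seen. A listed 0 is not read as absence here, and loss of reads in the counting was not tested. From the lowest values in the files, a single fragment would have added between 0.020 and 0.026 FPKM to Thy1 or Twist1 and less to the longer Dpp4 and Fap. The level that 3 fragments would give was at most 0.077 FPKM for these 4 genes. The estimate covers counting only, and lower levels were not detectable at this depth.

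Dpp4 and Fap lie side by side on the chromosome, parted by Gcg, which was also listed at 0 in both libraries. Of 10 prolyl peptidase genes related to this pair, both included, 6 passed the filter, with 0 over 2-fold changed in either direction. The intracellular relatives Dpp8 and Dpp9 had 21.7 and 29.9 FPKM in WT cells against 32.3 and 28.0 FPKM in KO-labelled cells. Dpp7 had 24.1 and 19.1 FPKM and Prep had 18.2 and 17.9 FPKM. The undetected members were thus the surface forms Dpp4 and Fap together with Dpp6 and Dpp10, which are known mainly from neurons.

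The remaining genes used to mark fibro-adipogenic progenitors or interstitial fibroblasts gave a mixed picture. Of 29 such genes 14 passed the filter, with 2 over 2-fold higher, 1 over 2-fold lower and a median log2 fold change of 0.019. Smoc2, a secreted calcium-binding matrix protein gene, had 0.406 FPKM in WT cells against 6.92 FPKM in KO-labelled cells. Mfap5, a microfibril gene, had 0.889 and 3.62 FPKM. Osr1, a transcription factor gene of fibro-adipogenic progenitors, went the other way, with 3.14 FPKM in WT cells against 0.693 FPKM in KO-labelled cells. With a pseudocount of 5 Smoc2 alone of these 3 stayed beyond the limit. Each of the 3 was below 1 FPKM in a library, and 14 of the 29 genes did not reach 1 FPKM in either library. Other genes of the list were high in both, in WT and then KO-labelled cells. S100a4 had 10643 and 10861 FPKM, Vim 3406 and 3097 FPKM, Gsn 137 and 141 FPKM, and Cd44 55.2 and 53.6 FPKM. Pi16, which marks the same fibroblast progenitors as Dpp4, had 0.068 and 0.085 FPKM, and Lum, a collagen-binding proteoglycan gene of fibroblasts, was listed at 0 in both.

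**Figure D3:**
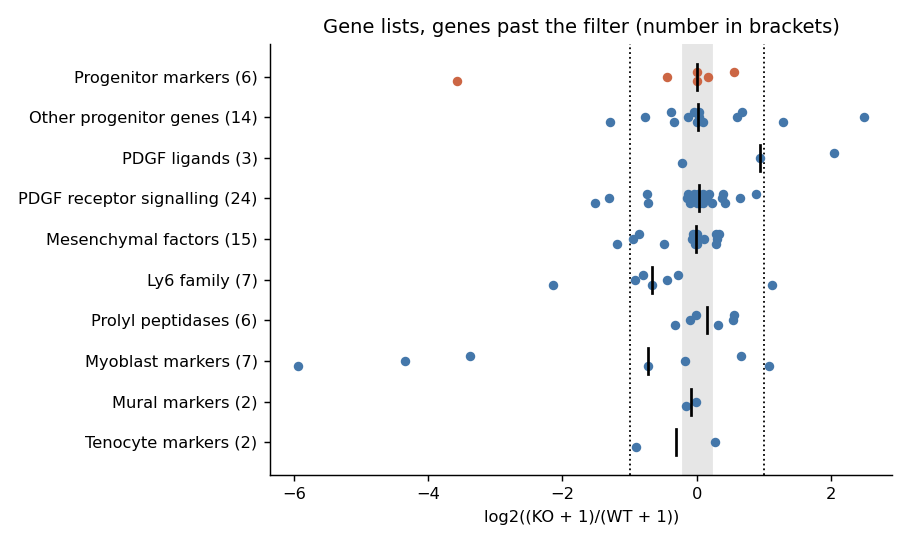
Log2 fold change of each gene past the filter, by list, with the number of genes in brackets, the median of each list as a black bar, the quartiles of all 10542 genes as a grey band and the 2-fold limits as dotted lines. The progenitor markers centre on 0.0059 with Cd34 apart at -3.56, and the myoblast markers spread widest.

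Markers of other cells were read in the same libraries, since 4 of the 10 progenitor markers, Thy1 and Dpp4 among them, were not detected. Of 10 myoblast and satellite cell markers 7 passed the filter, with 3 over 2-fold lower and 1 over 2-fold higher. Over all genes past the filter, 3.43% were lower and 2.84% higher by that limit. The summed level of the 10 myoblast markers was 278 FPKM in WT cells against 118 FPKM in KO-labelled cells. That of the 10 progenitor markers was 534 and 384 FPKM. The widest gaps in the myoblast sum were those of Des and Myod1, given below. Of the 7 genes, 5 were lower and 2 higher, with Vcam1 among the higher at 32.1 and 51.3 FPKM. Ncam1 had 14.7 and 13.0 FPKM, and Pax7, a satellite cell marker, was listed at 0 in both. Most of the difference in the progenitor sum came from Cd34, at 136 and 10.6 FPKM. Myod1, the myogenic master regulator, had 59.97 FPKM in WT cells and was listed at 0 in the other. Des, encoding desmin, had 97.6 and 3.84 FPKM and Cdh15, encoding M-cadherin, had 16.6 and 0.701 FPKM. Myf5, another myogenic regulator, was higher in KO-labelled cells, at 9.14 and 20.3 FPKM, a log2 fold change of 1.07. That value was 0.84 with a pseudocount of 5 and 0.72 less its neighbours' median, both inside the limit. Cd34, Myod1, Des and Cdh15 were grouped here as genes over 2-fold lower in KO-labelled cells, so their shared direction follows from that choice. A link between them was not tested.

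Markers of other cells were at or near 0 in some lists and not in others. All 7 endothelial genes stayed below 1 FPKM, with summed levels of 0.010 FPKM in WT cells against 0.080 FPKM in KO-labelled cells, and Cdh5 and Kdr were listed at 0. Of 6 haematopoietic genes 5 stayed below 1 FPKM, with Ptprc at 0, and the sum was 3.10 and 1.58 FPKM. Of 7 mural cell genes 5 stayed below 1 FPKM, Cspg4 had 18.9 and 16.8 FPKM, Notch3 had 2.69 and 2.67 FPKM, and Abcc9 and Kcnj8 were at 0. Schwann cell genes, 3 in all, summed to 0.348 and 0.426 FPKM. The 3 tenocyte genes summed to 104 and 57.2 FPKM, most of it from Scx, and the 4 epithelial genes to 18.9 and 6.20 FPKM, nearly all from Krt14. Cd68, at 2.85 and 1.06 FPKM, was the haematopoietic gene above 1 FPKM. The defining genes of endothelial and blood cells, in which Cd34 is also known, were thus at or near 0 in both libraries, with Cd68 as the exception.

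The values of genes close by on the chromosome were set beside the markers, because stretches of some chromosomes moved together between the libraries. Positions are from GENCODE vM39 on GRCm39. Cd34 lies on the plus strand of chromosome 1 from 194621029 to 194647172. Genes past the filter that start within 5 Mb of it, upstream or downstream, numbered 22, and their log2 fold changes had a median of 0.11 and ranged from -0.39 to 0.83. Cd34, at -3.56, lay outside that range. Less its neighbours' median, its value was -3.68.

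Ly6a lies on the minus strand of chromosome 15 from 74863840 to 74869880. Of its 110 neighbours 94 were lower in KO-labelled cells, with a median of -0.37, so that Ly6a at -0.44 differed from them by -0.069. Pdgfrb lies among 34 neighbours with a median of 0.015, and its value less theirs was 0.53. Thy1, on chromosome 9 from 43954332 to 43959880, was at 0 among 46 neighbours of which 43 were higher in KO-labelled cells. Prrx1 and Twist2 lie on chromosome 1, from 163041844 to 163142033 and from 91729176 to 91796542, and their values less those of their neighbours were -0.076 and -0.14. Whether changes shared along a chromosome have a part in the value of Ly6a was not tested.

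**Figure D4:**
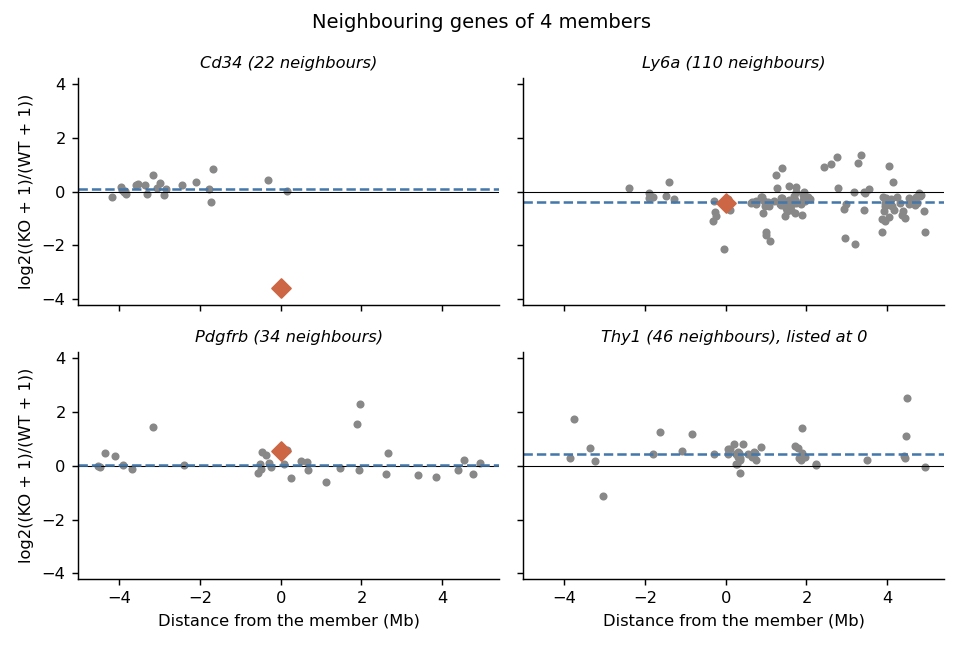
Log2 fold change of the genes past the filter (grey points) within 5 Mb on either side of 4 markers, against distance from the marker's start in Mb, with the neighbours' median as a dashed line and the marker as a diamond. Cd34 stands far below its neighbours, Ly6a lies near the median of its own, and Thy1 has no diamond because it was listed at 0.

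By level, the order in WT cells was Ly6a, Cd34, Prrx1, Twist2, Pdgfrb and Pdgfra, from 198 to 10.8 FPKM. In the KO-labelled library it was Ly6a, Pdgfrb, Prrx1, Twist2, Pdgfra and Cd34, from 146 to 10.6 FPKM. The places of Cd34 and Pdgfrb changed and the order of the other 4 was kept. Without replicates, the spread that would tell close neighbours in this order apart, such as Prrx1 and Twist2, is not known.

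**Figure D5:**
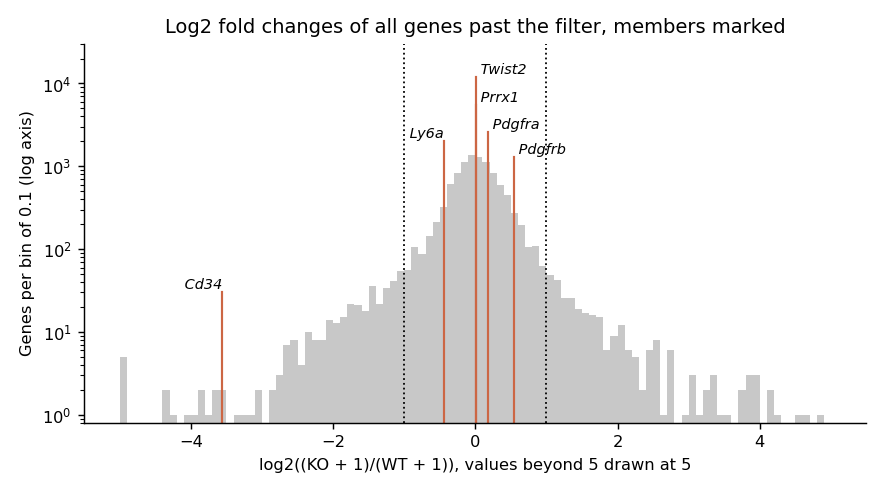
Number of genes (log axis) by log2 fold change for the 10542 genes past the filter, in bins of 0.1, with the 6 detected markers drawn as labelled lines whose height has no meaning and the 2-fold limits dotted. Cd34 at -3.56 lies in the lower tail, and the other 5 markers lie between -0.44 and 0.55.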

How the data were processed

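RNA from 1 WT and 1 Gne KO C2C12 culture was sequenced. The labels and the methods differ on the library kit, the read length and the genome build (GRCm38 per the labels, GRCm39 in the methods). Reads were trimmed with Trim Galore, aligned with STAR and quantified with RSEM 1.3.3, for which the methods name expected counts and TPM. Which output was deposited is not given in the sources used here. The deposited values, 1 per gene symbol, were taken as FPKM because they are never negative, sum to 568543 and 574253 and step with transcript length at their lowest values. A TPM table of the same genes cannot be told apart from it.

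Where a symbol occurred more than once (24 of 21853 rows were repeats), its highest row by mean was used. The pseudocount was 1, the minimum mean 1 FPKM and the limit a 2-fold change. The read number is not stated. The value of 1 fragment was estimated, after the values were seen, as the most frequent product of value and transcript length among the lowest values (79 in WT and 97 in KO-labelled cells) of the 1952 genes with 1 transcript in GENCODE vM39. It was 0.0375 in WT cells and 0.0425 in the others, in FPKM times kilobases, with bins of 0.005, the fullest of which held 20 values in each library. Counting error only is covered.

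The markers and lists were chosen with earlier results of these data known. All 10 markers, fixed relatives and up to 4 genes per list beyond 2-fold in either direction were named, and other genes were named after their values were seen. The fold rule was run on simulated data, a copy of the WT values with large changes planted in well expressed genes. That run does not test low genes, the spread between clones or the lack of replicates. Positions were found for 10171 of the 10542 genes past the filter. Alternatives were a pseudocount of 0.1 or 5, a minimum mean of 5 FPKM or none, scaling by the median of ratios and subtraction of the median of neighbouring genes. Python 3.11.15, numpy 2.4.6, pandas 2.3.3 and matplotlib 3.10.9 were used.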

Additional observations from a re-analysis of the deposited data

How the results depend on the processing

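Cd34 was the 1 marker over 2-fold lower, and 0 were higher, under each of the 6 alternatives run. The median log2 fold change of the markers, 0.0059, stayed near 0 without a fixed sign, at -0.00059 after scaling by the median of ratios and -0.072 after subtraction of neighbouring genes. The values of Prrx1, -0.0032 after scaling, and of Twist2, -0.14 after subtraction, had no fixed sign either. Over all genes, 299 higher and 362 lower ones dropped to 102 and 176 when the pseudocount was 5. A minimum mean of 5 FPKM, which leaves fewer genes to count, gave 145 higher and 221 lower. Among 81 genes of the other lists that passed the filter, 5 were over 2-fold higher, against 1 when the pseudocount was 5 and 1 under the minimum mean of 5 FPKM. That gene was Smoc2 in the first setting and Myf5 in the second, so that none was kept under both. Of the 9 lower ones Osr1 was lost under both of these settings. Subtraction of neighbouring genes gave 6 higher and 7 lower, with Junb and Ier2 lost among the lower, Myf5 lost among the higher, and Gab1 and Pdgfrl gained as higher. A pseudocount of 0.1 added Pdgfc as higher and Cd68 and Gli1 as lower, and the absence of a filter added Dcn as higher. The median of ratios gave a scaling factor of 0.995 for the KO-labelled library. Replicates could not be left out in turn, as each line has 1 library. No paired analysis was possible for the same reason, and the result comes from no test. Depth limits what can be said of the markers listed at 0, and the absence of replicates limits every difference.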

Other observations

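Markers of other connective tissue and epithelial cells were read in the same libraries. Scx, a transcription factor gene of tendon precursors, had 102 FPKM in WT cells against 54.2 FPKM in KO-labelled cells, while Tnmd, a gene of mature tendon cells, was listed at 0 in both. Krt14, a keratin gene of basal epithelium, had 18.8 FPKM in WT cells against 6.20 FPKM in KO-labelled cells, a log2 fold change of -1.46. Epcam was listed at 0 in both, and Cdh1 and Krt5 were at or below 0.017 FPKM. Gli1, a Hedgehog target that marks a subset of fibro-adipogenic progenitors, had 2.28 and 0.916 FPKM. Nt5e, encoding the mesenchymal stromal marker CD73, had 0.324 FPKM in WT cells against 0.0090 FPKM in KO-labelled cells, below the filter in both.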
